A study of Mus musculus with 6 samples.

Results

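The enzymes that make serine, move one-carbon units through folate, and make proline and asparagine were examined in early LPre-B cells, a large pre-B stage of the bone marrow, with and without a conditional deletion of *Upf1*. The group was chosen by gene symbol and holds 10 of the 13426 genes in the table of expression values: *Phgdh*, *Psat1*, *Psph*, *Shmt1*, *Shmt2*, *Mthfd2*, *Mthfd1l*, *Aldh18a1*, *Pycr1* and *Asns*. All 10 had a row in the table. *Upf1* encodes an RNA helicase required for nonsense-mediated mRNA decay.

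Serine is built from a glycolytic intermediate by PHGDH, PSAT1 and PSPH in turn. SHMT1 in the cytosol and SHMT2 in mitochondria split serine into glycine and a one-carbon unit carried on folate, which MTHFD2 and MTHFD1L pass on toward formate for purine and thymidylate synthesis, so the pathway is used heavily by dividing cells. ALDH18A1 and PYCR1 make proline from glutamate, and ASNS makes asparagine from aspartate and glutamine. Several of these genes are known targets of ATF4, the transcription factor of the integrated stress response.

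RNA was measured in 3 libraries from control (Ctrl) mice and 3 from Upf1-cKO mice. Ctrl mice were Upf1 Flox/Flox with Mb1 +/+, and Upf1-cKO mice were Upf1 Flox/Flox with Mb1 Cre/+, so both groups carried floxed *Upf1* alleles and Cre was present in the Upf1-cKO group alone. Cre was expressed from the Mb1 (*Cd79a*) locus, which is active in the B lineage, and the presence of Cre and the loss of *Upf1* cannot be told apart. The cells were sorted from the bone marrow of adult mice of both sexes as B220+ cells that were large, CD43+ and lacked surface IgM and CD2. The study describes its replicates as biological, and the labels do not say whether each library came from a separate mouse, so p-values measure the spread between these samples.

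Values are normalised reads, that is, reads per 1e6 of the effective library size, and libraries held between 9732498 and 11006834 reads. *Upf1*, read over the whole gene although internal exons are removed, went from 241 ± 32.3 to 297 ± 12.7 between Ctrl and the libraries labelled Upf1-cKO (SD, n = 3 each; log2 fold change 0.31, limma adjusted p = 0.00696). The call was lost with median centring (adjusted p = 0.0645) and with plain eBayes (adjusted p = 0.0685), and the log2 fold change was 0.19 without Ctrl library 2. Its row was thus not lower where the label says it was deleted and checks little of the deletion, and Upf1-cKO here stands for the libraries with that label. *Cd79a*, the locus that carries Cre on 1 allele in Upf1-cKO, was at 221 ± 11.4 in Ctrl and 73.3 ± 1.85 in Upf1-cKO (SD, n = 3 each; adjusted p = 1.24e-11). All 14 B lineage markers were in the table, with summed levels of 3030 to 3305 in Ctrl and 3369 to 3602 in Upf1-cKO. Single markers moved both ways, 6 higher (42.9%, beside 27.7% of all genes) and 3 lower (21.4%, beside 25.0%): *Kit* (log2 fold change 2.07), *Dntt* (1.64) and *Rag1* (1.55) had the largest rises, and *Cd79a* (-1.58), *Ptprc* (-0.84) and *Il7r* (-0.61) fell. The part of a difference in stage in the results was not tested. The 10 neutrophil markers summed to 124.5, 19.1 and 14.8 in Ctrl libraries 1 to 3 and to 466, 357 and 332 in Upf1-cKO libraries 1 to 3, 5 of them passed the test as higher, and none was at 0 in every library of a group. The 6 macrophage and dendritic markers in the table summed to 36.9 to 63.5 in Ctrl and 61.2 to 81.9 in Upf1-cKO, and the 2 T and NK markers to 1.17 to 1.59 and 3.79 to 5.27, with *Cd3e*, *Cd3g*, *Cd3d*, *Cd4* and *Cd8a* having no row in the table. The 3 erythroid markers in the table summed to 6.82 to 11.8 and 8.39 to 9.42, and the 3 plasma cell markers to 28.5 to 40.3 and 14.0 to 18.2. The part of these other cell types in the results was not tested. Of the Ctrl libraries, the first had the highest neutrophil sum. It also had the lowest Ctrl value for 8 of the 10 enzyme genes, beside 34.2% of all genes. *Asns*, with 15 reads there, was 1 of them, and any link to the neutrophil sum was not tested. In bulk RNA, fewer cells of a type and less RNA per cell cannot be told apart.

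The sequence around the transcription start was compared across the 10 genes because ATF4 and its C/EBP partners are known to bind an element with the core TGATGNAA. Windows of 300 bases, from 250 before to 50 after the start, came from RefSeq on GRCm38.p6 and were found for all 10 genes. The core was searched on both strands, as TGATGNAA and as its reverse complement TTNCATCA. It occurred in the windows of 2 of the 10 genes, *Asns* and *Pycr1*, against 3.97% of 32851 windows and 2.89% of the 10193 genes of the table that had a window. *Asns* and *Pycr1* were also the members with the highest log2 fold changes, and any link between the match and the change was not tested. The windows of both are shown 5′ to 3′ with the match in capitals, followed by those of *Aldh18a1*, which also rose, and *Shmt1*, which fell, both without a match.
Asns, chr6:7693160-7693459, minus strand: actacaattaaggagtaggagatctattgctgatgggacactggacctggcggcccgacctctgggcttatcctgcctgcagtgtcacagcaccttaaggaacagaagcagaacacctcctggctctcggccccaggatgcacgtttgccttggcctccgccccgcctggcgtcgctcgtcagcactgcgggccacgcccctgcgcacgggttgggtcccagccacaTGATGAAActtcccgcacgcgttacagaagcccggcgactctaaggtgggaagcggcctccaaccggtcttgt
Pycr1, chr11:120643699-120643998, minus strand: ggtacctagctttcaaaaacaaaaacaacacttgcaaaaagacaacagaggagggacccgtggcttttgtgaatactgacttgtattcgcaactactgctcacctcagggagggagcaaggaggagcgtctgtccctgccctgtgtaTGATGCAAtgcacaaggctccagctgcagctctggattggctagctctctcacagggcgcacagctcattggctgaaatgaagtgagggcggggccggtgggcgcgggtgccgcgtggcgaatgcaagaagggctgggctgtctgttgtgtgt
Aldh18a1, chr19:40588414-40588713, minus strand: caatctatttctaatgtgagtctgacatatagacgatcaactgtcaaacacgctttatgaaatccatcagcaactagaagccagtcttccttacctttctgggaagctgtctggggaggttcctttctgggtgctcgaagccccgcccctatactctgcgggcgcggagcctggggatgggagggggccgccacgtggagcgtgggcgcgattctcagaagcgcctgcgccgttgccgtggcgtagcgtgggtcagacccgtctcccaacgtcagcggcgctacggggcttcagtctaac
Shmt1, chr11:60811216-60811515, minus strand: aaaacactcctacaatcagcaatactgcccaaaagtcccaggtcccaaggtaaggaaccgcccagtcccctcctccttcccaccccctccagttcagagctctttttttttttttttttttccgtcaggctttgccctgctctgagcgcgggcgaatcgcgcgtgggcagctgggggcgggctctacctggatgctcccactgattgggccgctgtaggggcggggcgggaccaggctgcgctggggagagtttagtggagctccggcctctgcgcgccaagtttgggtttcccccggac
In *Asns* the match was TGATGAAA, beginning 23 bases upstream of the start, and in *Pycr1* it was TGATGCAA, beginning 103 bases upstream. Both lay on the strand of the gene. A match is a description of these letters, and the absence of one in the other 8 genes says nothing of sites outside these windows.

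Of the 10 genes, 6 rose in Upf1-cKO (*Asns*, *Pycr1*, *Aldh18a1*, *Shmt2*, *Mthfd2* and *Phgdh*), 1 fell (*Shmt1*) and 3 did not pass the test (*Psat1*, *Psph* and *Mthfd1l*). The test was limma on log2(value + 1) with Benjamini-Hochberg adjustment over all 13426 genes and a threshold of 0.05. Over all genes tested, 3725 (27.7%) were higher and 3351 (25.0%) were lower. Centring each library on its median called 5 members higher and 2 lower, and scaling libraries to total reads called 7 higher and 1 lower; over all genes these scalings gave 2992 higher with 4355 lower and 5169 higher with 1936 lower. The median log2 fold change of the 10 genes was 0.36, beside 0.01 over all genes.

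For the 6 genes that rose, every Upf1-cKO library lay above every Ctrl library, as for 30.9% of all genes. For *Shmt1* every Upf1-cKO library lay below every Ctrl library, as for 28.0% of all genes. The 3 remaining genes overlapped between the groups.

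**Figure D1:**
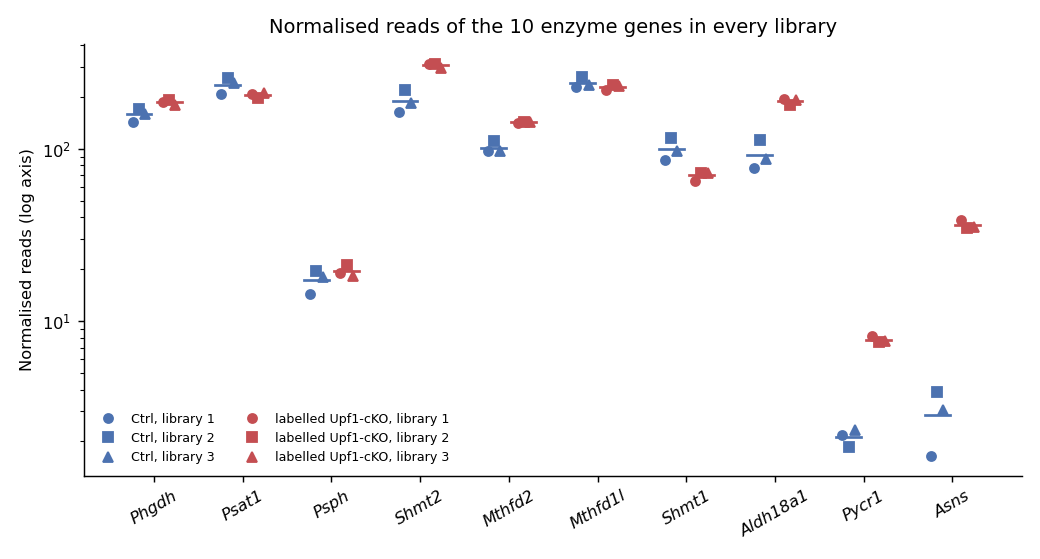
Normalised reads of the 10 enzyme genes in each of the 6 libraries on a log axis, with Ctrl and Upf1-cKO side by side, 1 point per library and a line at the group mean. *Asns* and *Pycr1* sit lowest in Ctrl and their groups lie far apart, while the points of *Psat1*, *Psph* and *Mthfd1l* overlap.

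*Asns* (Entrez 27053, chromosome 6, 7675165 to 7693209, minus strand, GRCm38.p6) had the highest fold change of the group. It encodes asparagine synthetase. Its level was 1.65, 3.89 and 3.03 normalised reads in Ctrl and 38.6, 34.5 and 35.4 in Upf1-cKO. These values rest on 15, 38 and 30 reads in Ctrl and on 395, 382 and 419 reads in Upf1-cKO. The groups were thus far apart, and the Ctrl libraries differed more from each other, relative to their mean, than the Upf1-cKO libraries did. The mean went from 2.86 ± 1.13 to 36.2 ± 2.16 (SD, n = 3 each), a 12.7-fold rise in normalised reads. The log2 fold change was 3.31 (SE 0.19, limma adjusted p = 1.18e-10) on the log2(value + 1) scale used throughout, which understates the change of a gene this low in Ctrl, and 3.75 without a pseudocount. Its rank was 17 from the top of the 13426 genes. Without Ctrl library 1, which had the lowest level, the log2 fold change was 3.06.

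*Pycr1* (Entrez 209027, chromosome 11, 120638998 to 120643748, minus strand) encodes the mitochondrial reductase of the last step of proline synthesis. Its Ctrl mean was the lowest of the group, although *Asns* was lower in Ctrl library 1. It was at 2.18, 1.87 and 2.33 normalised reads in Ctrl and at 8.15, 7.53 and 7.63 in Upf1-cKO. The groups did not overlap, and the values rest on 18 to 23 reads in Ctrl and 83 to 90 reads in Upf1-cKO. The mean rose 3.65-fold, from 2.13 ± 0.236 to 7.77 ± 0.332 (SD, n = 3 each). On the log2(value + 1) scale the change was 1.49 (SE 0.19, adjusted p = 2.59e-06), and without a pseudocount it was 1.87.

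*Aldh18a1* (Entrez 56454, chromosome 19, 40550257 to 40588463, minus strand) encodes the enzyme that starts proline synthesis from glutamate. Its level was 77.1, 112 and 86.9 in Ctrl and 195, 180.2 and 192 in Upf1-cKO. The highest Ctrl library was well below the lowest Upf1-cKO library. The mean went from 92.1 ± 18.1 to 189 ± 7.74 (SD, n = 3 each), which is 1.05 on the log2 scale (SE 0.11, adjusted p = 6.21e-07). A processed pseudogene, *Gm15801*, overlaps the gene, so their reads cannot be fully separated.

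Both genes of proline synthesis rose, by different amounts. *Aldh18a1* and *Pycr1* summed to 94.2 ± 17.9 normalised reads in Ctrl and 197 ± 7.99 in Upf1-cKO (SD, n = 3 each). Nearly all of the sum was *Aldh18a1* in both groups. The related reductase gene *Pycr3* did not pass the test. *Pycr3* was at 26.6 ± 3.89 and 29.1 ± 1.29 (log2 fold change 0.14, adjusted p = 0.351; SD, n = 3 each).

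*Shmt2* (Entrez 108037, chromosome 10, 127517123 to 127522444, minus strand) encodes the mitochondrial serine hydroxymethyltransferase. Its level was 164, 219.8 and 183 in Ctrl and 312, 312 and 294 in Upf1-cKO. All Upf1-cKO libraries were higher, and 2 of them were nearly equal. The mean went from 189 ± 28.4 to 306 ± 10.4 (SD, n = 3 each), or 0.70 on the log2 scale (SE 0.09, adjusted p = 3.57e-06). *Ndufa4l2* overlaps it on the opposite strand, and counting did not use strand.

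*Shmt1* (Entrez 20425, chromosome 11, 60788897 to 60811265, minus strand) encodes the cytosolic form and moved the other way. Its level was 86.2, 116 and 97.5 in Ctrl and 65.4, 72.6 and 72.5 in Upf1-cKO. The groups did not overlap, although the lowest Ctrl library was closer to the Upf1-cKO libraries than to the highest Ctrl library. The mean went from 99.8 ± 14.9 to 70.2 ± 4.13 (SD, n = 3 each), or -0.49 on the log2 scale (SE 0.10, adjusted p = 0.000424). A snoRNA gene, *Gm24945*, overlaps it.

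Within each library the log2 ratio of *Shmt2* to *Shmt1* was 0.92, 0.92 and 0.90 in Ctrl and 2.24, 2.09 and 2.0 in Upf1-cKO. It was almost constant over the Ctrl libraries even though the level of each gene varied there. The ratio rose by 1.19, with p = 0.1 in an exact two-sided permutation test, which is the smallest p that 3 libraries against 3 allow, and 0.1 after adjustment over the 5 pairs of related enzymes compared. All 5 pairs had this same p, and in none did the groups overlap.

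*Mthfd2* (Entrez 17768, chromosome 6, 83305704 to 83326011, minus strand) encodes the mitochondrial methylenetetrahydrofolate dehydrogenase and cyclohydrolase. Its level was 97.3, 111 and 97.1 in Ctrl and 141, 143 and 142 in Upf1-cKO. The Upf1-cKO libraries lay within a very narrow range above all Ctrl libraries. The mean went from 102 ± 7.81 to 142 ± 0.944 (SD, n = 3 each), and the log2 difference was 0.48 (SE 0.08, adjusted p = 5.54e-05). Its paralog *Mthfd2l* went from 1.75 ± 0.015 to 3.75 ± 0.0076 (SD, n = 3 each), with a log2 fold change of 0.79 (adjusted p = 0.0025). *Mthfd2l* rests on 16 to 17 reads in Ctrl and 38 to 44 in Upf1-cKO. The log2 ratio of *Mthfd2* to *Mthfd2l* was lower in Upf1-cKO by 0.30, at 4.91 against 5.22 (exact two-sided permutation p = 0.1), and by 0.61 without a pseudocount. Another annotated gene, *Gm43890*, overlaps *Mthfd2* on the same strand.

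*Mthfd1l* (Entrez 270685, chromosome 10, 3972892 to 4167081, plus strand) encodes the mitochondrial enzyme that releases formate. It was at 228, 259 and 236 in Ctrl and at 221, 235 and 232 in Upf1-cKO, so the groups overlapped. The log2 fold change was -0.07 (95% confidence interval -0.23 to 0.09, adjusted p = 0.464), an interval that leaves room for small changes of either sign. Scaling to total reads gave 0.13 and quantile normalisation 0.03. Its cytosolic counterpart *Mthfd1*, which carries out several folate steps, fell from 166 ± 20.7 to 127 ± 3.28 (SD, n = 3 each; log2 fold change -0.38, adjusted p = 0.00149), a call that was lost with scaling to total reads. The log2 ratio of *Mthfd1l* to *Mthfd1* was 0.54 in Ctrl and 0.85 in Upf1-cKO, a difference of 0.31 (exact two-sided permutation p = 0.1). A processed pseudogene, *Gm16074*, and an snRNA gene, *Gm25515*, overlap *Mthfd1l* on the same strand.

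**Figure D2:**
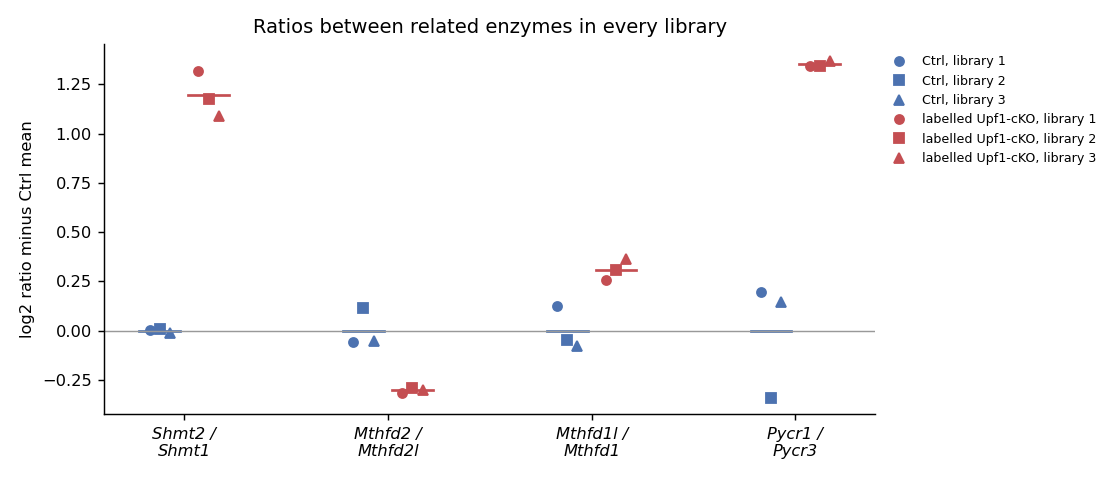
Difference in log2(value + 1) between related enzymes in each library, minus the Ctrl mean of that pair, with 1 symbol per library and a line at the group mean. *Shmt2* to *Shmt1* and *Pycr1* to *Pycr3* lie more than 1 log2 unit higher in Upf1-cKO, *Mthfd1l* to *Mthfd1* lies 0.31 higher, and *Mthfd2* to *Mthfd2l* lies 0.30 lower.

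The mitochondrial enzymes *Shmt2*, *Mthfd2* and *Mthfd1l* summed to 489, 589.9 and 516 in Ctrl and to 674, 691 and 669 in Upf1-cKO, a difference of 27.5%. The cytosolic *Shmt1* and *Mthfd1* both fell, the latter not with total-read scaling. For *Pycr1*, the log2 ratio to *Pycr3* went from -3.13 to -1.78, a difference of 1.35 (exact two-sided permutation p = 0.1).

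Of the 3 enzymes of serine synthesis, *Phgdh* passed the test and *Psat1* and *Psph* did not. *Phgdh* (Entrez 236539, chromosome 3, 98313171 to 98339969, minus strand), the entry step, was at 144, 171 and 159.9 in Ctrl and 188, 192 and 179 in Upf1-cKO. The mean went from 158 ± 14.0 to 186 ± 6.65 (SD, n = 3 each), and the log2 difference was 0.24 (SE 0.08, adjusted p = 0.0193). That call rests on single libraries: the adjusted p was 0.0644 without Ctrl library 1, 0.0726 without Upf1-cKO library 1 and 0.0851 without Upf1-cKO library 2. It was also lost when each library was centred on its median (log2 fold change 0.13, adjusted p = 0.192).

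*Psat1* (Entrez 107272, chromosome 19, 15905123 to 15925059, minus strand), the transaminase of the pathway, was at 208, 259 and 241 in Ctrl and 207.5, 197 and 211 in Upf1-cKO. Ctrl library 1 lay among the Upf1-cKO libraries. The log2 fold change was -0.19 (95% confidence interval -0.37 to -0.02, adjusted p = 0.0589). Without Ctrl library 1 it was -0.28 and passed the test (adjusted p = 0.00288). It also passed with median centring (-0.30) and with DESeq2 (-0.22), and with scaling to total reads it was 0.0097.

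*Psph* (Entrez 100678, chromosome 5, 129765558 to 129787443, minus strand), the phosphatase of the last step, was at 14.4, 19.5 and 17.9 in Ctrl and 18.9, 21.1 and 18.2 in Upf1-cKO. The groups overlapped, with a log2 fold change of 0.17 (95% confidence interval -0.12 to 0.45, adjusted p = 0.319). It passed the test under scaling to total reads (0.36, adjusted p = 0.0363). A transcript of *Cct6a* overlaps it on the opposite strand. The 3 genes of serine synthesis summed to 411 ± 42.4 in Ctrl and 411 ± 3.0 in Upf1-cKO (SD, n = 3 each), a difference of -0.0892%.

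**Figure D3:**
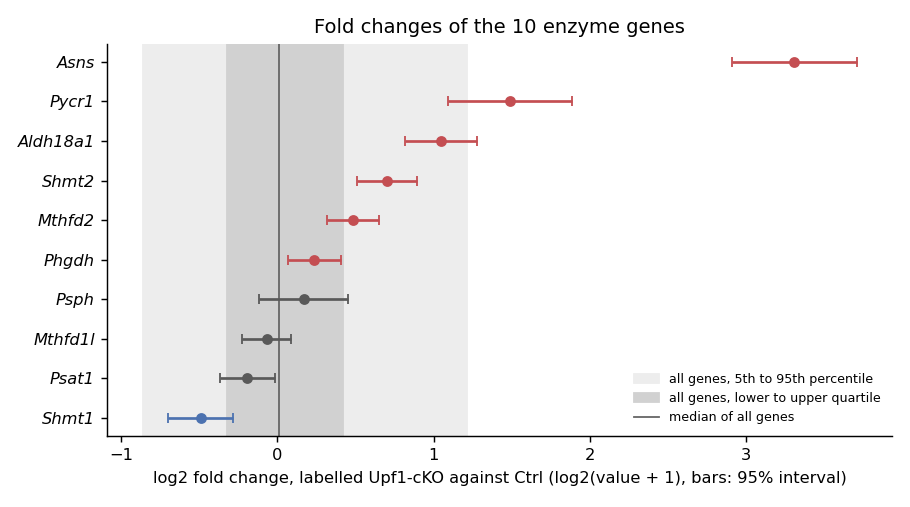
Log2 fold change of each enzyme gene, Upf1-cKO minus Ctrl, with its 95% confidence interval from limma, beside the spread of all 13426 genes. The span between the lower and upper quartiles of all genes runs from -0.32 to 0.42; *Asns*, *Pycr1*, *Aldh18a1*, *Shmt2* and *Mthfd2* lie above it and *Shmt1* below it.

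The order of the genes by amount differed from their order by fold. By normalised reads the largest differences were those of *Shmt2* (117 ± 17.5), *Aldh18a1* (96.9 ± 11.4), *Mthfd2* (40.5 ± 4.54) and *Asns* (33.3 ± 1.41), each with the SE of the difference. That of *Pycr1* was 5.64 ± 0.235. Per kilobase of transcript, which allows levels to be compared between genes, the highest levels in Ctrl were those of *Psat1* (90.1), *Phgdh* (83.6) and *Shmt2* (82.6), and the lowest were *Asns* (1.42) and *Pycr1* (0.730). In Upf1-cKO, *Shmt2* was highest per kilobase (134), followed by *Phgdh* (98.4) and *Psat1* (78.5). *Asns* stood at 17.9 per kilobase, still below all members other than *Psph* (6.74) and *Pycr1* (2.67). All 10 genes together summed to 1022, 1273 and 1125 normalised reads in Ctrl and 1395, 1396 and 1385 in Upf1-cKO, 22.1% more on average, and *Asns* made up 0.245% of that sum in Ctrl and 2.60% in Upf1-cKO.

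**Figure D4:**
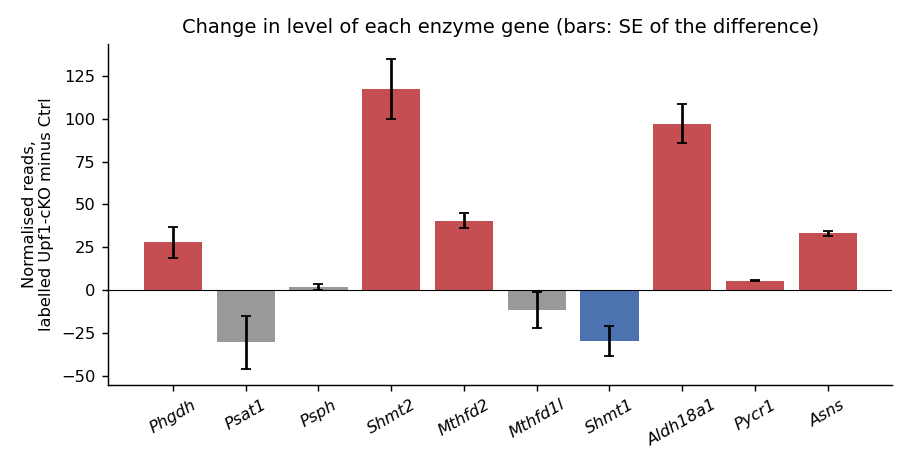
Difference of the group means in normalised reads for each enzyme gene, with the SE of the difference as error bars and bars starting at 0; red bars passed the test as higher, the blue bar as lower, and grey bars did not pass. *Shmt2* and *Aldh18a1* have the tallest bars, at 117 and 96.9, although *Asns* has the highest fold change.

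The Ctrl libraries were less alike than the Upf1-cKO libraries over these genes. The coefficient of variation was lower in Upf1-cKO for 10 of the 10 genes, beside 64.9% of all genes, and its median over the members was 13.0% in Ctrl and 3.83% in Upf1-cKO. Among the 9202 genes with a mean log2 value of at least 3, the coefficient was lower in Upf1-cKO for 68.3%, with medians of 9.43% and 6.38%. Ctrl library 1 had the lowest Ctrl value for 8 of the 10 genes, against 34.2% of all genes. Ctrl library 2 had the highest for 9 of the 10, against 33.0% of all genes. *Pycr1* was the exception to the second pattern, being lowest in Ctrl library 2.

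Other genes of the connected pathways were read from lists drawn up from general knowledge. Over the 137 such genes that are not members, 60 were higher (43.8%), 30 were lower (21.9%) and 47 did not pass, with a median log2 fold change of 0.19. Over all genes the shares were 27.7% and 25.0% and the median 0.01, so the share that was lower was near that of the table. Under scaling to total reads the counts were 75 higher and 11 lower, beside 5169 and 1936 over all genes.

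Among 19 other genes of folate one-carbon metabolism, 9 rose (47.4%, beside 27.7% of all genes) and 3 fell (15.8%, beside 25.0%), with a median of 0.19. *Ggh*, which trims the glutamate tail of folates, rose by 0.91 on the log2 scale and *Aldh1l1*, a cytosolic formyl-folate dehydrogenase, by 0.85. The genes that fell were *Sfxn1*, a carrier of serine into mitochondria (-0.40), *Mtrr*, which reactivates methionine synthase (-0.39), and *Mthfd1* (-0.38). The count of genes that fell was 7 with median centring and 0 with scaling to total reads.

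Among 22 genes of purine and thymidylate synthesis, 4 rose (18.2%, beside 27.7% of all genes) and 12 fell (54.5%, beside 25.0%), with a median of -0.28. Some of these genes use no one-carbon unit, among them *Rrm2*, *Rrm1*, *Dut*, *Impdh1* and *Adss*. *Rrm2*, a subunit of ribonucleotide reductase, fell from 459 ± 35.8 to 218 ± 6.70 (SD, n = 3 each; log2 fold change -1.07, adjusted p = 1.58e-09). *Dut* (-0.81) and *Rrm1* (-0.80) also fell. In the other direction, *Tyms*, the thymidylate synthase, rose from 114 ± 13.1 to 201 ± 13.4 (SD, n = 3 each; log2 fold change 0.81, adjusted p = 4.62e-07), with *Impdh1* at 0.83 and *Adss* at 0.35. Scaling to total reads gave 6 higher and 6 lower.

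Of 16 genes of the methionine cycle and transsulfuration, 4 rose and 4 fell (25.0% each), with a median of 0.14. These shares are near the 27.7% and 25.0% over all genes. *Gclc*, the catalytic subunit of the first enzyme of glutathione synthesis, fell from 217 ± 22.5 to 81.2 ± 6.84 (SD, n = 3 each; log2 fold change -1.40, adjusted p = 5.24e-10), with *Ahcy* at -0.63 and *Gclm*, the partner subunit, at -0.43. *Enoph1*, of methionine salvage, rose by 1.12, *Ahcyl2* by 0.91 and *Ahcyl1* by 0.64. Total-read scaling gave 6 higher and 2 lower.

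Of 12 genes that use glycine or serine, 4 rose (33.3%, beside 27.7% of all genes) and 1 fell (8.33%, beside 25.0%), with a median of 0.09. The share that rose was near that of the table. Among the called genes were *Gatm* of creatine synthesis (1.45), *Ptdss2* of phosphatidylserine synthesis (0.76), *Amt* of the glycine cleavage system (0.75) and *Dld* of the same system (-0.49). With total-read scaling 6 were higher and none lower, and with quantile normalisation 3 were higher and 3 lower. The count that fell was 2 without Ctrl library 3.

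Of 11 genes of proline, ornithine and arginine metabolism, 4 rose (36.4%, beside 27.7% of all genes), with a median of 0.33. No gene was called lower by limma, edgeR or DESeq2, and 0 were lower at an unadjusted p under 0.05. *P4ha1*, a collagen prolyl hydroxylase, rose from 12.9 ± 1.14 to 35.5 ± 4.81 (SD, n = 3 each; log2 fold change 1.39, adjusted p = 5.54e-08). *Prodh*, which begins proline breakdown, had 0.64 (adjusted p = 0.0484) and *Aldh4a1*, the next enzyme, 0.39 (adjusted p = 0.0478). The count of genes that rose was 1 with DESeq2, median centring or quantile normalisation, and 7 with total-read scaling. It was 2 without Ctrl library 1, without Ctrl library 3 or without Upf1-cKO library 2.

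Among 15 genes of aspartate, glutamine and glutamate metabolism 8 rose (53.3%, beside 27.7% of all genes) and 4 fell (26.7%, beside 25.0%), with a median of 0.28. *Gpt2*, a mitochondrial alanine transaminase, went from 3.91 ± 1.49 to 25.1 ± 6.32 and *Bcat1*, a cytosolic branched-chain transaminase, from 106 ± 23.5 to 368 ± 19.6 (SD, n = 3 each). Their log2 fold changes were 2.43 (adjusted p = 1.93e-07) and 1.81 (adjusted p = 2.54e-07), and that of *Gfpt1*, of hexosamine synthesis, was 0.83. *Asnsd1*, whose product carries an asparagine synthetase domain, fell by 0.61 on the log2 scale, unlike *Asns*. *Got2*, the mitochondrial aspartate transaminase, had -0.31 and *Ppat*, which starts purine synthesis, -0.28. Total-read scaling gave 10 higher and 1 lower. The count that rose was 5 without Upf1-cKO library 1, and the count that fell was 2 without Upf1-cKO library 2.

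Of 9 transporters of serine, glycine, asparagine, proline or cystine, 6 rose (66.7%, beside 27.7% of all genes), with a median of 0.53. No transporter was called lower by limma, edgeR or DESeq2, and 0 were lower at an unadjusted p under 0.05. *Slc1a4*, a carrier of serine and other neutral amino acids, was at 4.41, 4.70 and 5.21 in Ctrl and 31.4, 36.5 and 31.0 in Upf1-cKO (log2 fold change 2.55, adjusted p = 7.29e-11). *Slc6a9*, a glycine transporter, rested on 4, 4 and 13 reads in Ctrl and 117, 108 and 96 in Upf1-cKO (2.64, adjusted p = 2.08e-08). *Slc7a5*, a carrier of large neutral amino acids, had 0.78.

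The cytoplasmic aminoacyl-tRNA synthetases, which load amino acids onto tRNA, split as 11 higher and 4 lower of 20, with a median of 0.38. *Cars* (1.37), *Yars* (1.10) and *Sars*, the enzyme for serine (0.98), were the highest. *Qars* (-0.50), *Dars* (-0.43) and *Hars* (-0.37) fell. Total-read scaling gave 13 higher and 2 lower.

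Of 16 regulators of the integrated stress response, 11 rose (68.8%, beside 27.7% of all genes) and 3 fell (18.8%, beside 25.0%), with a median of 0.95. *Ddit3*, which encodes the transcription factor CHOP, went from 10.3 ± 0.816 to 109 ± 1.67 (SD, n = 3 each; log2 fold change 3.29, adjusted p = 2.36e-14), and *Trib3*, a pseudokinase, from 1.22 ± 0.351 to 18.6 ± 2.28 (3.15, adjusted p = 2.5e-10). *Chac1*, which degrades glutathione, had 0, 3 and 0 reads in Ctrl and 52, 95 and 68 in Upf1-cKO. The kinase genes *Eif2ak1* (-0.44) and *Eif2ak3* (-0.36) and the factor *Cebpg* (-0.29) fell, and with total-read scaling none of the 16 was called lower.

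**Figure D5:**
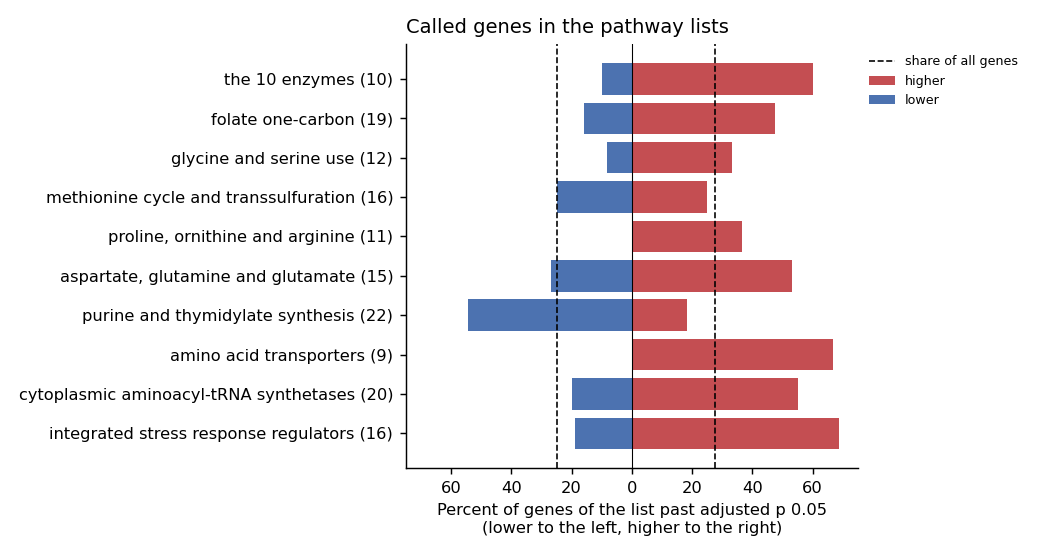
Share of the genes in each pathway list, in percent, that passed the test as higher or as lower in Upf1-cKO, beside the shares over all genes (27.7% and 25.0%). The enzyme genes described here, the transporters and the stress response regulators have 60% or more of their genes higher, and purine and thymidylate synthesis has 54.5% lower.

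The genes whose pattern over the 6 libraries was nearest to that of *Asns* were sought among 12322 genes by the root mean square difference of log2 values after the Ctrl mean was subtracted. They were *Pvt1* (0.11), a noncoding RNA gene beside *Myc*, then *Snhg15* (0.21), *Snhg1* (0.26) and *Snhg16* (0.28), which are noncoding hosts of small nucleolar RNAs, and *Ddit3* (0.32). *Pvt1* was at 4.20, 6.52 and 6.21 in Ctrl and 67.6, 57.3 and 64.1 in Upf1-cKO. As with *Asns*, its Ctrl values were lowest in library 1 and highest in library 2, and its Upf1-cKO values were highest in library 1 and lowest in library 2. The measure follows the group difference first, so it lists genes with a change of nearly the same size. It compares every library, so a like order of libraries was favoured by the search itself. Over all genes, 17.5% had their Ctrl libraries in the order 1, 3, 2 from lowest to highest.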

How the data were processed

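RNA of early LPre-B cells was depleted of ribosomal RNA and sequenced from a single end. Per the submitters' processing notes and the study's methods, reads were trimmed with cutadapt 4.0, aligned to mm10 with HISAT2 without strand, and counted with featureCounts 2.0.1, with limma 3.48.0 used afterwards. For each gene the deposited table holds a linear signal made by the authors, which its values show to be reads plus 0.5 per 1e6 of an effective library size; whole reads were recovered for 100% of values within 0.1 read. Names and coordinates came from RefSeq GRCm38.p6 (13008 of 13426 genes named), and lengths from the longest GENCODE transcript (12155 genes). Overlapping genes were found in the same annotation.

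Groups were compared by limma (version 3.58.1, R 4.3.3) after a pseudocount of 1 and log2 transformation, with trend and robust eBayes and no covariate, and p-values were adjusted by Benjamini-Hochberg across the whole table; SE and 95% intervals are moderated. Ratios of related enzymes were tested with an exact permutation test. The limma test, not the permutation test, was also run on simulated counts, and the outcome is not given here. Alternatives were median centring, quantile and total-read scaling, other pseudocounts, filters on low values, plain eBayes, voom, edgeR 4.0.16, DESeq2 1.42.0, a replicate block and leaving out each library. The members, lists and markers were chosen with earlier results of these data known. Named from each list were the genes past 0.05 with the largest absolute log2 fold change, at most 3 in each direction, besides all members, the related enzymes, *Upf1* and the 5 genes nearest to *Asns*; the overlapping genes and the markers are named besides. Some items that this rule selects, among them 1 of the 5 enzyme pairs, are not reported here.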

Additional observations from a re-analysis of the deposited data

How the results depend on the processing

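Over 18 alternatives, the log2 fold changes of *Asns* (3.06 to 3.75), *Aldh18a1* (0.93 to 1.25), *Shmt2* (0.59 to 0.91), *Mthfd2* (0.37 to 0.69) and *Shmt1* (-0.60 to -0.29) kept their direction and passed the test, as did *Pycr1* (1.29 to 1.89) over the 17 that tested it; a minimum mean log2 value of 3 left it out. The number of members that rose ran from 5 to 7. The number that fell was 2 in place of 1 with median centring, with DESeq2 and without Ctrl replicate 1 (1 to 2 over the libraries left out), the added gene being *Psat1*. *Psat1* turned to 0.0097 (adjusted p = 0.937) with scaling to total reads, and *Mthfd1l* to 0.031 (adjusted p = 0.75) with quantile normalisation and 0.13 (adjusted p = 0.172) with total-read scaling. *Phgdh* also missed the threshold under eBayes without trend and robust estimation (adjusted p = 0.0867). With total-read scaling the median over all genes shifted from 0.01 to 0.19 (log2), leaving 1936 genes lower, 11 of them among the other pathway genes; relative to that median *Psat1* was at -0.18 and *Mthfd1l* at -0.06. The cause of these differences was not tested, beyond the shift that the scaling itself makes. The gene with the most reads held 22.22%, 23.77% and 16.41% of reads in Ctrl libraries 1 to 3. In Upf1-cKO libraries 1 to 3 that gene held 16.55%, 13.75% and 13.91%, and its part in the scaling results was not tested. The ratios of related enzymes kept their direction in the 8 alternatives run for them (2 other pseudocounts and 6 libraries left out in turn), with *Mthfd2* to *Mthfd2l* at -0.61 to -0.25.

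The replicate numbers were tried as a block. Deviations of same-numbered libraries correlated at 0.13, -0.06 and -0.08, which did not show a pairing. The labels give same-numbered libraries neighbouring ID numbers and do not say whether these mark a shared litter or day. With the replicate block 6 members rose and 1 fell, as without it, and 3668 genes were higher and 3321 lower over the table.

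Depth limits the genes that are low in Ctrl: *Asns*, *Pycr1* and *Mthfd2l* rest on 15 to 38 reads per library there, *Ggh* and *Aldh1l1* on 14 to 37, and *Trib3*, *Gatm* and *Slc6a9* on 4 to 18.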
